A study of Mus musculus with 2 samples.

Results

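In the vehicle-treated library of PLZF/RARA leukemic promyelocytes, 2280 of 5146 kept cells (44.3%, exact 95% binomial interval 42.9 to 45.7) carried Cpa3 and little or no Mpo. A cell was counted when Cpa3 was at 200 CPM or more, Mpo was below 200 CPM, and fewer than 2 of the 6 basophil and mast cell genes Il13, Cd200r3, Cd200r4, Slc6a4, Alox15 and Cma1 were detected. CPM here is a gene's UMIs per 1000000 UMIs of a cell, or of a class of cells when summed, and UMIs are the molecular tags by which captured RNA molecules were counted. The cells were thus chosen by the levels of these 8 genes, which are given only as a description. The kept cells had at least 5000 UMIs, at least 500 genes and 0.1 to 10% mitochondrial UMIs. The other 2866 kept vehicle cells were 1813 low in both genes, 620 with Mpo and little Cpa3, 296 with both, and 137 with at least 2 of the 6 basophil and mast genes.

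PLZF/RARA is a leukemic fusion of a zinc finger protein with retinoic acid receptor alpha, and per the labels the cells of both libraries express it. Late promyelocytes positive for Cd45.2, c-Kit, FcγR and Gr1 and negative for Cd34 were sorted from leukemic bone marrow after 7 days of intraperitoneal corn oil with 10% DMSO (vehicle) or of 0.8 to 1 mg retinoic acid. Each treatment gave 1 droplet library with 10x Genomics 3′ chemistry, from a cohort of 3 to 5 mice. The labels do not say how many mice gave cells to a library, the mice's age, or how the fusion was introduced. With 1 library there is no replicate, so no test was made, all intervals cover counting error only, and every comparison below is between vehicle cells; levels in the retinoic acid library are given beside a few of them.

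Cpa3 encodes carboxypeptidase A3, a protease stored with histamine and heparin in the granules of mast cells and present in basophils and their progenitors. Mpo encodes myeloperoxidase, the enzyme of the primary granules that neutrophil progenitors fill at the promyelocyte stage. GATA2 is a transcription factor of blood stem and progenitor cells that is kept in the mast cell and basophil lineages, and normal neutrophil maturation proceeds with GATA2 low.

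Members held a median of 916 Cpa3 CPM (quartiles 476 and 1638, range 201 to 7447), which was a median of 15 UMIs in a cell (range 2 to 132). Only 117 of the 2280 cells rested on 3 Cpa3 UMIs or fewer. They contained 83.5% of the Cpa3 UMIs of the kept vehicle cells and 1.80% of the Mpo UMIs. Mpo was at 0 in 1949 members, above 0 and up to 100 CPM in 247, and between 100 and 200 in 84. Neither threshold fell in a gap of the distribution: 52 cells lay at 180 to 200 Cpa3 CPM outside it and 52 at 200 to 220 inside, and 52 lay at 200 to 300 Mpo CPM outside. Cells were therefore taken from a range of Cpa3 levels, not from a separate island. When each cell was thinned to 5000 UMIs, 95.6% of members had a Cpa3 UMI, against 27.7% of the other vehicle cells (26.1 to 29.4). Without thinning the others' share was 53.1%. Of 68 other vehicle cells with at least 3% of UMIs in a neutrophil maturation list, 1 cell (1.47%, 0.0372 to 7.92) had a Cpa3 UMI after thinning. Their median depth was 10719 UMIs against 15877.5 in members. These 68 cells lay outside the members by choice, 63 of them in the class low in both genes, and the 2 members of that kind were left out. The rule thus held their Cpa3 down, and the value is a description only. In the retinoic acid library 1 of 6248 kept cells (0.0160%, 0.000405 to 0.0891) met the same rule.

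**Figure D1:**
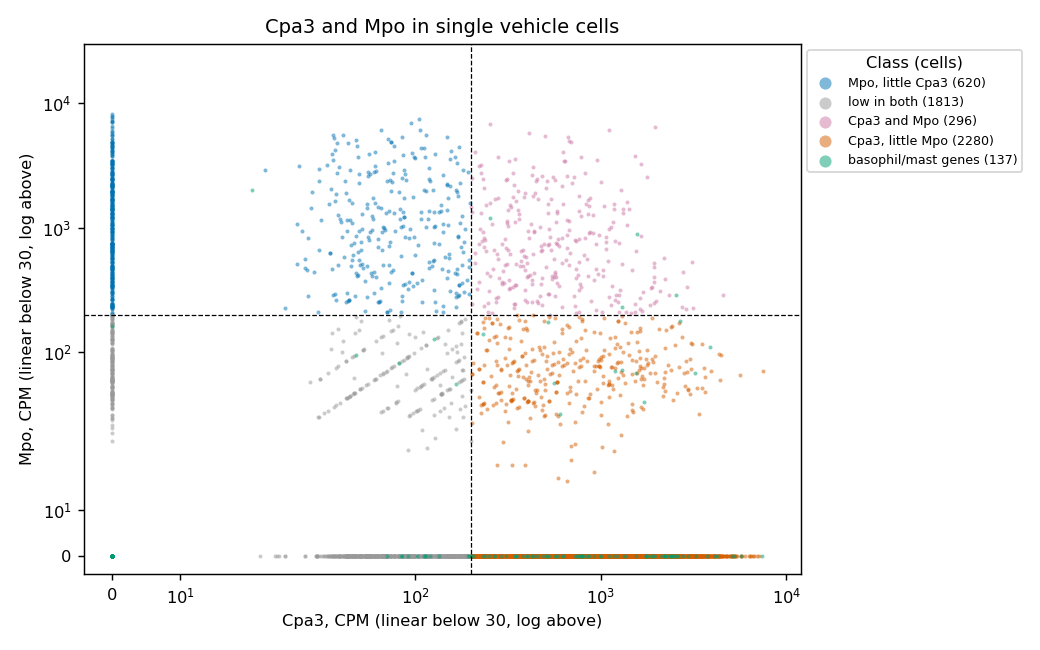
Cpa3 (horizontal axis) against Mpo (vertical axis) in each kept vehicle cell, both in CPM, linear below 30 and logarithmic above. Dashed lines mark 200 CPM and colours mark the 5 classes of cells. The 2280 members fill the lower right field, most of them on the line of no Mpo UMI, and run into the neighbouring fields without a gap.

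Depth differed between the classes, from a median of 12472 UMIs in the basophil and mast gene cells to 21071 in cells with Mpo alone. The vehicle matrix held 5786 barcodes, and the kept cells had a median of 17171.5 UMIs, against 15289 in the retinoic acid library. Members had a median of 15877.5 UMIs, 3559.5 genes and 2.08% mitochondrial UMIs, and the other kept vehicle cells had 18322.5 UMIs, 4036.5 genes and 1.95%. Of 11 barcodes found in both libraries, 10 were kept in both, and 5 of these 10 belonged to members.

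The sort and the label were checked against RNA first. Members carried the genes of the sorted antigens, with Ptprc (CD45) at 106, Kit at 22.0, Fcgr3 at 66.5 and Ly6c2, of the Ly6 family that Gr1 antibodies bind, at 5267 CPM. Cd34, whose protein the sort excluded, was at 58.6 CPM in members and at 46.1 in the cells low in both genes, and Ly6g, the main Gr1 antigen, was at only 9.81. Of the primary granule genes, Ctsg, which encodes the protease cathepsin G, stood at 5610 CPM and Elane, which encodes neutrophil elastase, at 12.5. The list of 10 such genes summed to 13170 CPM in members, below the 14904, 15041 and 16250 in cells with both genes, low in both and with Mpo alone. Genes of T and NK cells summed to 18.4 and of B cells to 13.1 CPM, and all 6 stromal and endothelial genes were at 0.

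The marker Gata2 (chr6:88193891-88207032, plus strand, GRCm38), which the rule did not use, was at 52.4 CPM in members (Poisson interval 50.2 to 54.7). It was at 37.5 (32.8 to 42.5) in cells with both genes, 25.1 (23.4 to 26.8) in cells low in both, 21.7 (19.3 to 24.3) in cells with Mpo alone, 288 (266 to 312) in the 137 cells with basophil and mast genes and 1.02 (0.834 to 1.23) in the retinoic acid library. The order of vehicle classes is therefore basophil and mast gene cells, members, cells with both genes, and then the last 2 classes, whose intervals overlap. The log2 ratio of members over all other vehicle cells was 0.57 (0.48 to 0.66), and it was 1.03 when the 137 cells were left out of the others, an alternative chosen after seeing the data. The size of that ratio thus depended on 2.66% of the kept cells. Against the cells low in both genes, the ratio was 1.06 (0.95 to 1.18). Just below and just above the Cpa3 threshold, Gata2 was alike, at 32.4 CPM in the 52 cells at 180 to 200 and 26.8 in the 52 cells at 200 to 220. Members with 1 of the 6 basophil and mast genes, 195 cells, had Gata2 at 121 CPM, and the 2085 with none had it at 46.5.

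Over all genes the members differed from their neighbours in few transcripts. Genes reaching 20 CPM in members or in the others numbered 5356. Of these, 17 (0.317%) were higher in members than in the other vehicle cells by 2-fold or more and 13 (0.243%) were lower by as much, and 1547 (28.9%) had a log2 ratio above 0. The median ratio of all compared genes was −0.10, so the ratios below are read against that value. Against the cells low in both genes, 30 of 5384 genes (0.557%) were 2-fold or more higher and 13 (0.241%) lower. Against cells with both genes, the closest class by this count, 5 (0.0945%) of 5293 were higher and 4 (0.0756%) lower. Against cells with Mpo alone 57 (1.05%) of 5440 were higher and 31 (0.57%) lower, and against the basophil and mast gene cells 313 (5.71%) of 5483 were higher and 339 (6.18%) lower. By these counts members lay nearest to cells with both genes and farthest from the small basophil and mast population. The counts against all others depended on which cells were taken: 28 genes were higher without the basophil and mast gene cells, and in G1 cells only 6 were higher and 31 lower, both alternatives added after seeing the data. In a map built without the 8 genes of the rule, 65.3% of the 15 nearest neighbours of a member were members, with members at 44.3% of cells. Cells low in both genes made up 21.3% of these neighbours and 35.2% of cells. Cells with both genes made up 5.95% of the neighbours and 5.75% of cells, so the map did not place them nearer than their share.

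Akr1c12 and Akr1c13 (chr13:4268176-4279433, minus strand, and chr13:4191150-4205596, plus strand, GRCm38) encode aldo-keto reductases, a family that acts on steroids and prostaglandins. Akr1c12 was at 61.2 CPM in members, 34.6 in cells with both genes, 11.0 in cells low in both and 9.01 in cells with Mpo alone. Akr1c13 was at 374, 277, 115 and 103 in the same order. Both followed the order seen for Gata2, with the basophil and mast gene cells above members. Their log2 ratios over all other vehicle cells were 1.88 and 1.34. Cyp11a1, the enzyme that cleaves the side chain of cholesterol, had a log2 ratio of 0.94, under 2-fold, and was at 369 CPM in members, 136 in cells low in both genes and 1580 in the basophil and mast gene cells. Reads of Akr1c12 and Akr1c13 may have been divided between the copies by the authors' counting, because the genes are close paralogs.

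Promoters of Cpa3, the gene that defines the cells, and of this pair are shown because the pair had large ratios at high levels and because GATA factors bind short motifs that can be looked for in the letters. Each line gives RefSeq sequence on the gene's strand from 250 bases before to 50 after the start (GRCm38.p6), with matches to AGATAA or TGATAA or AGATAG or TGATAG, searched on both strands, in capitals.
Cpa3 promoter, chr3:20242132-20242431, minus strand: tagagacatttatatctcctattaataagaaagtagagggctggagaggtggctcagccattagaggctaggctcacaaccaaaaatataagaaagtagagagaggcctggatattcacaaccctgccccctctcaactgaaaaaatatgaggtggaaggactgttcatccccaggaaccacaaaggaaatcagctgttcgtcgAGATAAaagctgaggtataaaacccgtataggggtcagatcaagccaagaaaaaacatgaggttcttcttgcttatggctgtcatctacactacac
Akr1c12 promoter, chr13:4279350-4279649, minus strand: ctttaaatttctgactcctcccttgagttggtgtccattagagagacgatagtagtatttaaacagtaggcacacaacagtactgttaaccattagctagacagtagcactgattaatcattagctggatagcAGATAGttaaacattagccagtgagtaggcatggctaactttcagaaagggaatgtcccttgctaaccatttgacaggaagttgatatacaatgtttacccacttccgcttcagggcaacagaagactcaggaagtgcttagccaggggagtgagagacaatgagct
Akr1c13 promoter, chr13:4190937-4191236, plus strand: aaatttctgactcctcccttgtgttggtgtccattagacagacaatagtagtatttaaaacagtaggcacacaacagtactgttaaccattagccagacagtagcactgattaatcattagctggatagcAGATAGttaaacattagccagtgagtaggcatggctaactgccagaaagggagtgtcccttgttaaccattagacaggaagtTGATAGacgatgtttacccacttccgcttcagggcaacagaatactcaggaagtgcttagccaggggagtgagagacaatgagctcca
The Cpa3 window holds 1 match, AGATAA, whose first base lies 46 bases before the start. The Akr1c12 window holds AGATAG at 117 bases before its start, and the Akr1c13 window holds AGATAG at 120 and TGATAG at 38 bases before its own. The 2 Akr1c windows share 284 of 296 aligned bases (95.9%), so their matches are not independent. Among all 32851 windows, 29.8% hold at least 1 such match. Of the 12 genes highest in members, 9 had a window, and 5 of these genes had a match in at least 1 of their windows. A gene can have several windows, so this share of genes cannot be set against the share of windows. A match describes letters only, and binding was not measured here.

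Genes known from the mast cell and basophil lineage were present in part. Hdc, which makes histamine, was at 82.2 CPM in members, 51.6 in cells with both genes, 27.1 in cells low in both, 22.9 in cells with Mpo alone and 704 in the basophil and mast gene cells. Mcpt8, a basophil granule protease, was at 142 in members, 80.7 in cells low in both genes and 715 in the basophil and mast gene cells. Members stood above the other promyelocyte classes and well below the small basophil and mast population for both. Of 10 compared genes in a list of 25 for basophils and the IgE receptor, 7 were above 0 against the other vehicle cells and 0 were at least 2-fold higher, with a median log2 ratio of 0.23. Against the cells low in both genes all 10 were above 0 and 2, Cyp11a1 and the chemokine Ccl9, at least 2-fold higher. The median was 0.39 beside −0.11 for all 5384 compared genes, of which 27.9% were above 0. Of the 23 mast granule and mediator genes 5 could be compared with the other vehicle cells, and 2, Hdc and Alox5ap, were above 0, 3 below and 0 at least 2-fold, with a median of −0.05. In the same list, 11 genes had no UMI in members, the tryptases Tpsb2 and Tpsab1 and the chymase Mcpt4 among them, which allows up to 0.0749 CPM each. Fcer1a, the alpha chain of the IgE receptor, had no UMI in any kept cell of either library, so it tells no classes apart, and Ms4a2, its beta chain, was at 1.52 CPM in members and 1.30 in cells low in both genes. Hdc in G1 cells was lower than in the other G1 cells by the log2 ratio (−0.39), and higher (1.36) once the basophil and mast gene cells were left out of them.

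Progenitor genes were mixed. Of 11 compared genes in a stem and progenitor list of 26, 8 were above 0 against the other vehicle cells, 3 below and 0 at least 2-fold, with a median log2 ratio of 0.23. Against cells with both genes 6 were above and 5 below 0, with a median of 0.02. All 5293 genes in that comparison had a median of −0.07, and 35.3% were above 0. Against cells with Mpo alone 6 were above and 5 below 0, with a median of 0.28. There the median of all 5440 genes was −0.13, and 30.9% were above 0. Ikzf2, which encodes the transcription factor Helios, was at 116 CPM in members, 103 in cells with both genes and 56.9 in cells low in both. The stem cell regulators Hlf, Mecom, Meis1 and Hoxa9 had no UMI in members. Csf2rb2, which encodes the mouse beta chain specific to the interleukin 3 receptor, was at 44.0 CPM in members, 23.1 in cells with both genes and 17.5 in cells low in both. Il3ra, the alpha chain of the same receptor, was at 69.9 against 48.5 in cells low in both genes. Ikzf2 and Csf2rb2 were higher still in the basophil and mast gene cells than in members. Of the 7 cytokine receptor genes compared with all other vehicle cells, 6 were above 0, with a median of 0.28. All 5356 genes in that comparison had a median of −0.10, and 28.9% were above 0. Compared with the basophil and mast gene cells, 9 of 10 cytokine receptor genes were below 0, with a median of −0.76. There 2059 of all 5483 genes were below 0, with a median of 0.16. Itga2b, the integrin of platelets and of early progenitors (CD41), was at 48.2 CPM in members, 25.2 in cells with both genes, 13.3 in cells low in both and 7.70 in cells with Mpo alone, a log2 ratio of 1.73 over the other vehicle cells. Most of its list, the erythroid and megakaryocyte genes, was too low to compare: 2 of 18 passed the level, and both were above 0 against the other vehicle cells. Compared with the basophil and mast gene cells, 2 of 18 also passed, and both, Itga2b among them, were below 0. Itga2b was thus not highest in members.

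Among 17 compared factors of myeloid fate, 0 differed 2-fold from the other vehicle cells and the median was −0.07, close to that of all genes. Runx1, needed for blood cell formation, was at 237 CPM in members and 149 in cells low in both genes. Cebpa and Cebpe, factors of granulocyte progenitors and of granule maturation, were at 45.9 and 419 in members and 45.3 and 406 in cells low in both genes. Gfi1, a repressor needed for neutrophil maturation, was at 63.7 against 90.1. Gata1, the GATA factor of eosinophils, mast cells and red cells, fell under the level for comparison, with 17.7 CPM (16.5 to 19.1) in members and 5.32 (4.58 to 6.14) in cells low in both genes. Gata2 and Gata1 were therefore higher in members than in cells low in both genes, while Cebpa and Cebpe were at nearly the same level. The log2 ratio of Gata1 over all other vehicle cells was 1.30. It was 1.59 without the basophil and mast gene cells, an alternative chosen after seeing the data, so those cells raised the others' level. Among members, Gata1 was at 55.7 CPM in the 114 cells with eosinophil granule RNA described below and at 15.7 in the rest.

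**Figure D2:**
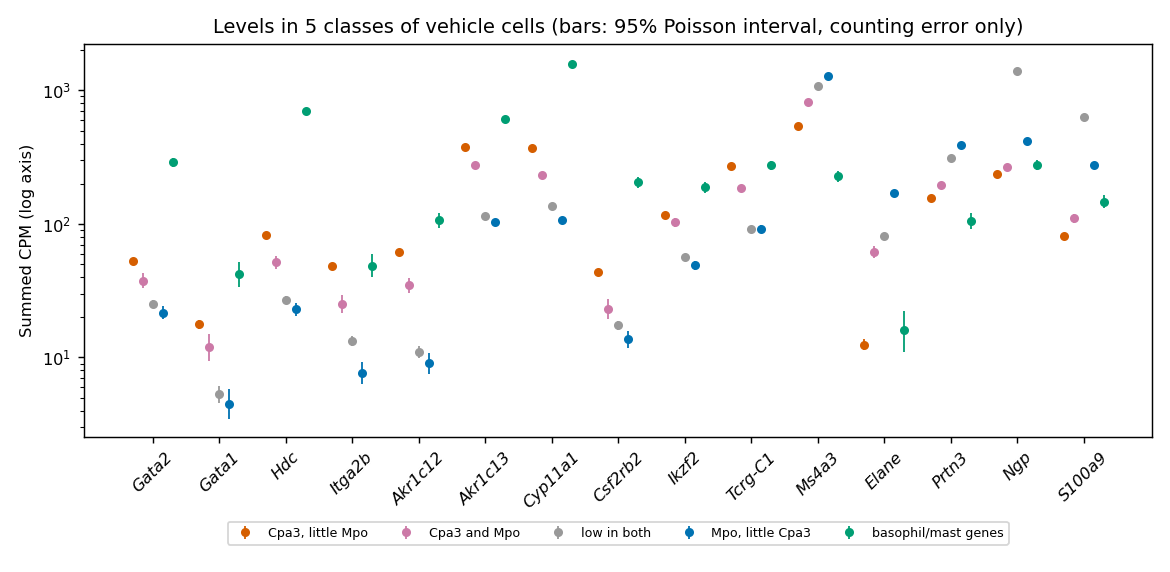
Summed levels of 15 genes (CPM, log axis) in the 5 classes of vehicle cells, with bars for the 95% Poisson interval. Members lie above the cells low in both genes and the cells with Mpo alone for Gata2 to Tcrg-C1 and below them for Ms4a3 to S100a9, and the cells with both genes lie between.

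The primary granule genes Elane, Prtn3 and Ms4a3 were lower in members. Elane was at 12.5 CPM (11.4 to 13.6) in members, 61.5 in cells with both genes, 81.6 in cells low in both and 171 in cells with Mpo alone. Its log2 ratio over the other vehicle cells was −2.98. Prtn3, the gene of proteinase 3, was at 158, 195, 311 and 387 in the same order of classes. Ms4a3, a membrane protein of granulocyte progenitors, was at 543, 823, 1087 and 1287. All 3 were lowest in members among these 4 classes, with no overlap of intervals. The list as a whole lay near the background: of 10 compared genes 7 were below 0 and 1 at least 2-fold lower, with a median of −0.14, where 3809 of all 5356 genes were below 0 with a median of −0.10. Nkg7 and Plac8 were at 1284 and 2278 CPM against 1260 and 2259 in cells low in both genes.

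The neutrophil maturation list had 12 compared genes, of which against all other vehicle cells 8 were below 0, 6 at least 2-fold, and 4 above, with a median of −1.45. Against cells with both genes 5 were above and 5 below 0, with a median of −0.02, and against cells with Mpo alone 5 and 5, with a median of −0.06. For all genes, the medians against these 2 classes were −0.07 and −0.13, with 35.3 and 30.9% of genes above 0. The list summed to 2250 CPM in members, 2112 and 2251 in those 2 classes and 4649 in cells low in both genes, which held 63 of the 68 cells rich in its genes. S100a8 and S100a9, the subunits of calprotectin, were at 11.6 and 81.2 CPM in members and at 210 and 467 in the other vehicle cells. Camp, the cathelicidin of secondary granules, was at 22.1 against 262, and Ngp, neutrophilic granule protein, at 237 against 990. Other genes of the list were higher in members. Anxa1, a phospholipid-binding protein of granulocytes, was at 578 against 340 and Ifitm6 at 109 against 67.7, and Cebpe and Pglyrp1 were at 419 and 435 against 385 and 432. Much of the lower levels lay in few cells. The 68 other cells with at least 3% of UMIs in the list held 93.3% of the others' Camp UMIs, 62.9% of S100a8, 51.6% of Ngp and 42.8% of S100a9, and only 2 members were of that kind. Without those cells, an alternative chosen after seeing the data, the log2 ratio was −0.26 for Camp, −1.18 for Ngp, −1.91 for S100a9 and −3.14 for S100a8, where it had been −3.57, −2.07, −2.52 and −4.18. Of the 12 genes, 7 stayed below 0, and Lcn2 came to 0.0066. Camp and Wfdc21 were then under 20 CPM in both groups, so 10 genes could be compared and 5 of these were below 0. Elane was unaffected by the 68 cells, with a ratio of −2.99 without them. Ly6g rested on another population, with 952 CPM in the basophil and mast gene cells, 9.81 in members and 14.2 in cells low in both genes. Ccl6, a chemokine listed among the lowest at a log2 ratio of −1.59, was at 3379 CPM in the basophil and mast gene cells, 52.0 in members and 39.3 in cells low in both genes, and its ratio was 0.60 without the former.

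Other genes high in members belonged to no list that could name a theme. Ctsh, which encodes the lysosomal protease cathepsin H, was at 74.4 CPM in members, 29.0 in cells with both genes, 24.6 in cells low in both and 10.5 in cells with Mpo alone. Ldhc, a lactate dehydrogenase best known from testis, was at 217, 125, 86.8 and 55.8, and Upp1, uridine phosphorylase, at 54.3, 30.1, 25.1 and 15.1. Ctsh, Ldhc and Upp1 were each higher still in the basophil and mast gene cells, so they are not particular to members. Tcrg-C1 and Tcrg-C2, constant regions of the T cell receptor gamma chain, were at 272 and 223 CPM in members and at 91.6 and 95.8 in cells low in both genes, while Cd3e, which T cells need, was at 0. They are near-identical copies and the counting could split their reads. Wfdc12, Mettl7a1 and Fgf3 completed the 12, with log2 ratios of 0.88, 0.91 and 0.85. A set of 15 genes high in the vehicle library in earlier results on these same libraries had 13 compared, of which 4 were at least 2-fold higher and 1 lower in members. It is no independent evidence.

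Members were found in G1 more often than their neighbours. At 5000 UMIs per cell 65.7% of members (63.8 to 67.7) were called G1, 10.3% S (9.09 to 11.6) and 23.9% G2/M (22.2 to 25.8). The other vehicle cells were 37.0% G1 (35.2 to 38.7), 19.2% S and 43.9% G2/M, a difference of 28.8 percentage points in G1 (26.1 to 31.4). Cells with Mpo alone were 22.4% G1, cells low in both genes 37.0% and cells with both genes 44.9%. Without thinning, G1 shares were 67.0% in members and 38.2% in the others. Phases were called from lists of S and G2/M genes in these same cells, so lower levels of those lists are no separate evidence. All 32 compared S genes and all 43 compared G2/M genes were below 0, with medians of −0.56 and −0.68 and 0 at least 2-fold. Of all 5356 compared genes, 3809 were below 0, with a median of −0.10. Mybl2, a cell cycle transcription factor outside both lists, was among the genes at least 2-fold lower, at 10.4 CPM in members and 20.8 in the others, and the mitosis genes Cenpf and Plk1 had log2 ratios of −0.90 and −0.88. G1 cells carried fewer UMIs, with a median of 13914 in G1 members against 24161.5 in G2/M members, and in cells with 10000 to 25000 UMIs, an alternative added after seeing the data, the G1 difference was 28.98 percentage points (25.8 to 32.0).

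**Figure D3:**
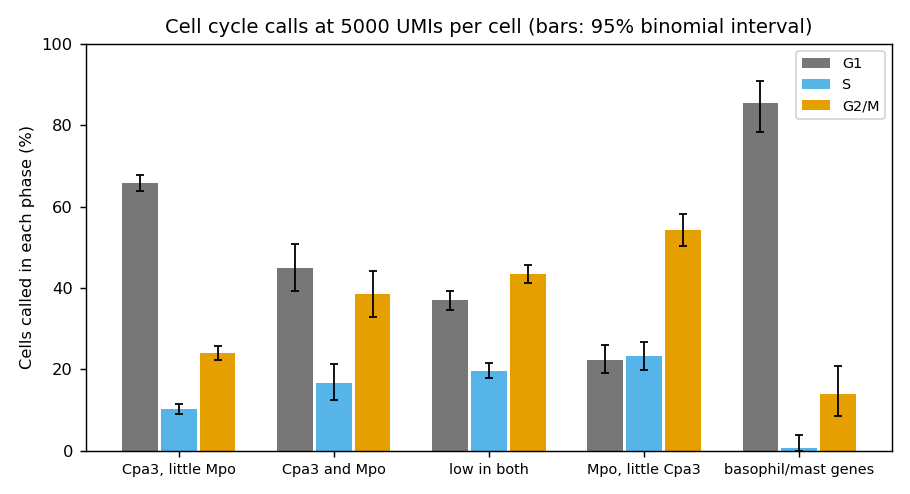
Share of cells called G1, S and G2/M (percent of the class, after thinning to 5000 UMIs) in the 5 classes of vehicle cells, with exact 95% binomial intervals. Members are 65.7% G1, above the cells with both genes, the cells low in both and the cells with Mpo alone, and below the 85.4% of the basophil and mast gene cells.

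Genes of Polycomb repressive complex 2, which holds the histone methyltransferase EZH2, were lower in members than in all other vehicle cells, over all phases together. All 8 compared genes of the complex were below 0 with a median of −0.34, where 3809 of all 5356 genes were below 0 with a median of −0.10. Compared with cells with both genes, 6 were below and 2 above 0, with a median of −0.20 beside −0.07 for all genes, of which 35.3% were above 0. Members were not the lowest class. Compared with the basophil and mast gene cells, all 8 were above 0, with a median of 0.64. There 62.4% of all 5483 genes were above 0, with a median of 0.16. Ezh2 was at 45.5 CPM in members, 56.7 in cells with both genes, 65.5 in cells low in both and 74.6 in cells with Mpo alone. Its log2 ratio over the cells low in both was −0.53, and within a phase the difference was smaller. Ezh2 in G1 was at 20.04 in members and 23.3 in cells low in both genes (log2 ratio −0.22, −0.45 to 0.03). In S it was at 82.1 and 90.6 (−0.14, −0.33 to 0.05), and in G2/M at 73.6 and 77.2 (−0.07, −0.19 to 0.05). These 3 intervals include 0. Against all other G1 cells the ratio was −0.27 (−0.47 to −0.06), and −0.33 (−0.54 to −0.12) without the basophil and mast gene cells, and both intervals exclude 0. Within G1, S and G2/M, 7 of 7, 7 of 8 and 6 of 8 compared genes of the complex were below 0 against all other cells. The share of all genes below 0 within a phase is not given here, so these counts have no background beside them and are a description only.

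Other differences were seen in every phase. Gata2 in G1 was at 59.3 CPM in members and 23.3 in cells low in both genes (1.35, 1.14 to 1.57), in S at 33.1 and 22.96 (0.53, 0.19 to 0.86) and in G2/M at 47.9 and 26.7 (0.84, 0.67 to 1.01). Against all other G1 cells, which include most basophil and mast gene cells, its ratio was 0.054, and 1.21 without those. Akr1c12 had ratios over the cells low in both genes of 2.63, 1.95 and 1.97 in G1, S and G2/M. Itga2b had 1.60, 1.79 and 1.73. Elane had −2.53, −2.85 and −2.34, and Ms4a3 −0.99, −0.63 and −0.70. The signs of these 5 genes were thus the same in all 3 phases.

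Members also varied with the amount of Cpa3. They were divided into 4 groups of 570 cells by rising Cpa3, with medians of 320, 673, 1214 and 2528 CPM. Gata2 was at 34.9, 41.1, 53.1 and 88.3 CPM as Cpa3 went from low to high, Csf2rb2 at 23.1, 32.3, 42.4 and 87.9, and Akr1c12 at 29.8, 49.5, 69.9 and 107. Ms4a3 ran the other way, at 774, 621, 480 and 214, as did Elane at 21.4, 12.7, 7.62 and 6.24 and S100a9 at 127, 83.5, 78.8 and 21.1. The highest group was also called G1 most often, in 90.0% of cells against 47.2, 59.1 and 66.7% in the lower groups, and was the shallowest, with a median of 14153.5 UMIs against 17403 in the lowest. In G1 cells only, the log2 ratio of the highest over the lowest group was 1.51 for Gata2 (1.23 to 1.81), 1.85 for Csf2rb2, 1.67 for Akr1c12, 1.46 for Hdc, 1.48 for Mcpt8 and −1.57 for Ms4a3. Nkg7 was level over the 4 groups, at 1264, 1255, 1301 and 1326 CPM. The nearest neighbours of the lowest group were members in 48.0% of cases and those of the highest in 85.1%, so cells with the least Cpa3 lay among the other classes.

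**Figure D4:**
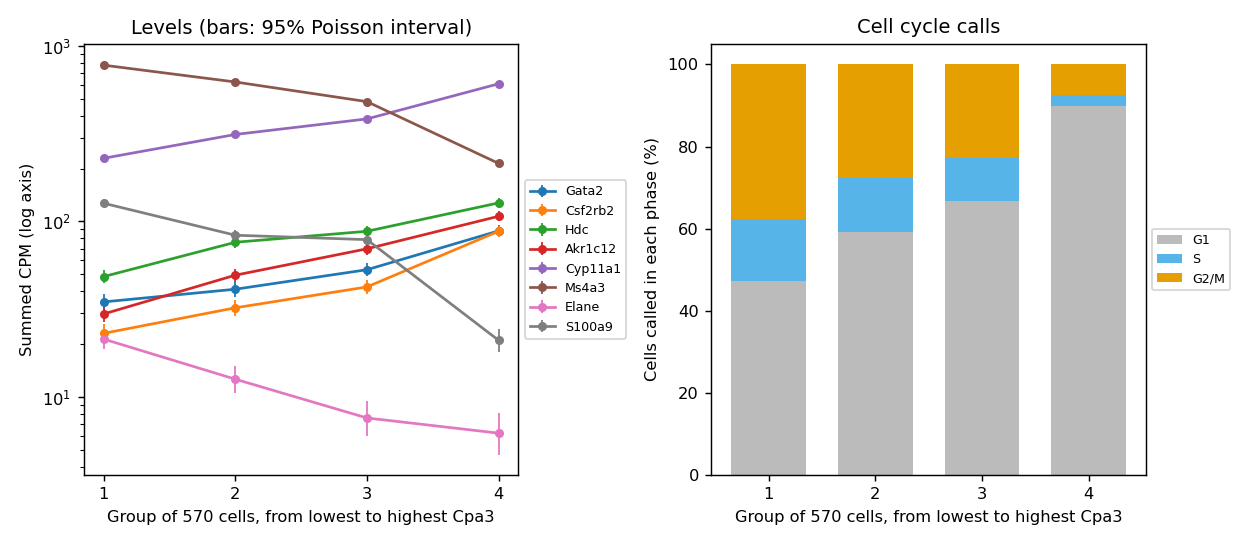
Left, summed levels of 8 genes (CPM, log axis, bars for the 95% Poisson interval) in 4 groups of 570 members from lowest to highest Cpa3; right, the share of each group called G1, S and G2/M. Gata2, Csf2rb2, Hdc, Akr1c12 and Cyp11a1 are highest and Ms4a3, Elane and S100a9 lowest in the group with most Cpa3, where 90.0% of cells are in G1.

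A small number of members carried eosinophil granule RNA. Prg2 and Prg3, which encode major basic protein and its homolog, and Epx, which encodes eosinophil peroxidase, had no UMI together in 1985 members, 1 to 4 in 181 and 5 or more in 114 (5.00%, 4.14 to 5.98), a boundary chosen after the values were seen. These 114 cells held 94.9% of the 5658 such UMIs of members, and 1 cell had 422. Cells of this kind were 3.04% of the cells with both genes (1.40 to 5.69), 1.27% of those low in both (0.806 to 1.90), 0.323% of those with Mpo alone (0.0391 to 1.16) and 22.6% of the basophil and mast gene cells (15.9 to 30.6). Prg2 had the largest log2 ratio of all compared genes, 2.02. Once cells with 5 or more such UMIs were left out, its ratio was 0.09 (−0.55 to 0.71), while that of Epx went from 1.51 to 1.44 (1.12 to 1.76). The cells left out were chosen by these genes. In the members that remained, Prg2 was at 1.03 and Epx at 6.21 CPM, under the 20 CPM level for comparison.

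Beyond the 3 genes that chose them, the 114 cells differed from the other 2166 members in several genes. Gata1 was at 55.7 CPM (45.9 to 67.0) against 15.7 (14.5 to 17.0), and Cebpe, a factor that eosinophils also need, at 764 (727 to 803) against 401 (395 to 407). Ear6, an eosinophil ribonuclease, was at 43.4 against 2.499, Hdc at 206 against 75.6 and Gata2 at 86.3 against 50.6. Siglecf, an eosinophil surface marker, was not higher, at 9.37 (5.64 to 14.6) against 12.3 (11.2 to 13.5). Cd34 was lower, at 19.7 (14.1 to 26.9) against 60.6 (58.2 to 63.2), and Ms4a3 was at 325 against 554. Cpa3 itself was alike, at 1221 and 1152, and so was Ctsg at 5133 and 5635. Il5ra, the eosinophil receptor for interleukin 5, had 1 UMI in the 114 cells and 5 in the others. In CPM this was 0.493 (0.0125 to 2.75) against 0.132 (0.0427 to 0.307), and the intervals overlap. Ear2 had no UMI in either group. Ccr3 was higher in the 114 cells, at 1.97 (0.538 to 5.05) against 0.0526 (0.00637 to 0.190), from 4 and 2 UMIs. Ear1 had 2 UMIs in the 114 cells and 0 in the others. The 114 cells were 54.4% in G1 and 38.6% in G2/M, against 66.3% and 23.2% of the other members. Their median depth of 14627.5 UMIs and median doublet score of 0.0523 were below the 15944.5 UMIs and 0.0685 of the other members.

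**Figure D5:**
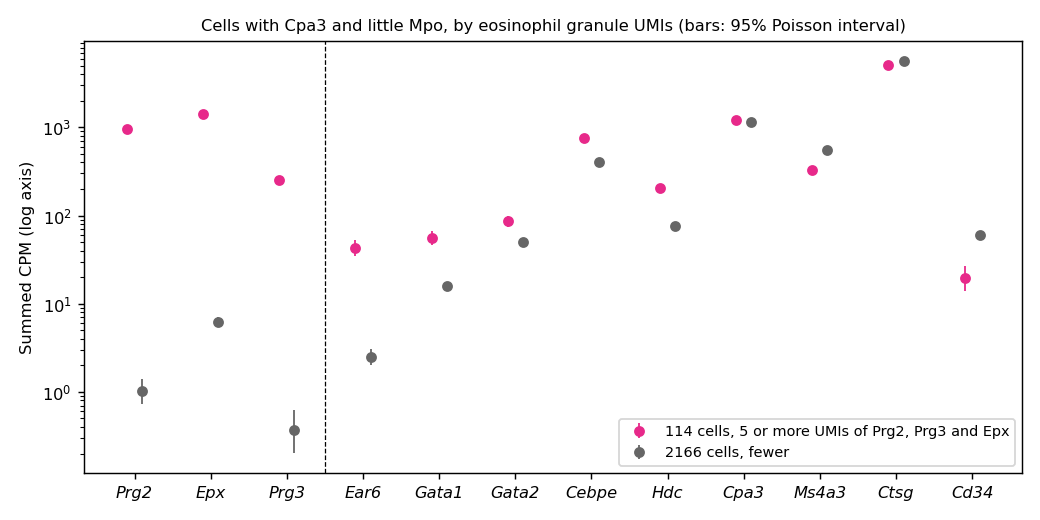
Summed levels (CPM, log axis, bars for the 95% Poisson interval) in the 114 members with 5 or more UMIs of Prg2, Prg3 and Epx and in the other 2166 members; genes left of the dashed line chose the cells. Gata1, Ear6, Cebpe, Hdc and Gata2 are higher and Cd34 and Ms4a3 lower in the 114 cells, and Cpa3 and Ctsg are nearly level.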

How the data were processed

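The authors deposited unnormalized UMI counts for 2 libraries, made with Cell Ranger 4.0.0 on builds mm10 and GRCm38.p4, per the submitters' processing notes; the aligner's settings, the gene annotation and the rule that called cells are not given in the sources used here. Of 32285 gene identifiers, 32158 matched GENCODE M21, from which gene coordinates come. Kept cells had at least 5000 UMIs, which removed 491 vehicle barcodes, and 0.1 to 10% mitochondrial UMIs, which removed 136 below and 13 above. Scrublet called 1 of 5146 cells a doublet, which was taken as a failure of the caller, and no doublets were removed; an alternative removed the 257 cells with the highest scores.

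Counts were summed over the cells of a class. Log2 ratios had 0.5 counts added to each sum. Genes with at least 20 CPM in either class were compared, and a ratio of at least 2 was counted. Sums have exact Poisson, shares exact binomial (Clopper-Pearson), ratios conditional exact binomial and differences of shares Newcombe intervals, all at 95%. Phases were called with scanpy 1.11.5 after thinning to 5000 UMIs. Neighbours were taken from 2000 variable genes and 30 principal components. Simulated counts with known ratios were used to test the calculation. The members and all 20 gene lists were chosen with earlier results of these data known. Named genes were those of the rule, Gata2, members of the lists with at least 20 CPM in members or others, the 12 highest and 12 lowest ratios among genes with at least 50, and the 5 largest differences each way for each class. Gata1, Mybl2, Ear6, Il5ra, Ear1, Ear2, Ccr3, Prg3, Siglecf, Cd3e, Ms4a2 and genes given at 0 were named outside that rule after their values were seen. The alternatives changed the thresholds, depth, filters, weights, scaling and cells included. Python 3.11.15, numpy 2.4.6, scipy 1.17.1 and pandas 2.3.3 were used.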

Additional observations from a re-analysis of the deposited data

How the results depend on the processing

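Of 591 recomputed values, 329 were counted as the same as reported, 258 moved without a change of sign and 4 changed sign. The 591 include the share of cells that were members and counts of genes, which cannot change sign. The 4 therefore do not measure how stable the values were. Members were 49.0% of cells at a threshold of 100 CPM, 37.0% at 400, 47.5% with cells thinned first and 46.0% with basophil and mast cells included. Genes at least 2-fold higher and lower, 17 and 13 as reported, were 46 and 29 with a level of 5 CPM, 3 and 5 with 100, and 1510 and 1860 with none, since far more or fewer genes were compared. There were 29 higher with the basophil and mast cells included as members and 20 lower with equal weight for every cell. With those cells included, the Gata2 ratio was 1.10 and 11 of 11 compared basophil and IgE receptor genes were above 0. The Gata2 ratio was 0.48 at the threshold of 100, 0.70 at 400 and 0.67 when centred on the median of all genes. Ccl6 turned to 0.32 with the basophil and mast cells included.

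The following alternatives were added after seeing the data. In cells with 10000 to 25000 UMIs, members were 46.3%, 20 genes were lower, and the S and G2/M shares differed by −12.26 and −16.71 percentage points in place of −8.85 and −19.95, and the G1 share by 28.98 in place of 28.80. With the basophil and mast cells left out of the others, 28 genes were higher, and the ratio was 1.03 for Gata2 and 0.60 for Ccl6. In G1 cells, 6 genes were higher and 31 lower, 15 of 16 compared S, 11 of 13 G2/M and 17 of 18 neutrophil maturation genes were below 0, and the ratio was 0.054 for Gata2 and −0.39 for Hdc. In G1 cells without the basophil and mast cells, 29 genes were lower, 16 of 16 S, 12 of 14 G2/M and 15 of 18 neutrophil maturation genes were below 0, 12 of 13 basophil and IgE receptor genes were above 0, and the ratio was 1.21 for Gata2 and 0.038 for Ccl6. In G2/M cells 21 of 30 S genes were below 0 and the Gata2 ratio was 0.71, and in S cells 25 of 32 G2/M genes were below 0. Without cells rich in neutrophil genes, 5 of 10 neutrophil maturation genes were below 0. The numbers compared, 32 S, 43 G2/M, 12 neutrophil maturation and 10 basophil and IgE receptor genes as reported, changed because the level of 20 CPM was read anew in the cells taken. The share of all genes below or above 0 is not given for these alternatives, so their list counts have no background beside them. The cause of the other shifts was not tested. No paired analysis was possible because there is a single vehicle and a single retinoic acid library. Levels of a few CPM are limited by depth.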

Other observations

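Genes not yet described also differed in level between members and the cells low in Cpa3 and Mpo. Cd68 and Adgre1, which macrophages carry in lysosomes and on the cell surface, were at 114 and 90.2 CPM in members and at 61.5 and 59.7 in those cells, and they were the only 2 of 17 monocyte and dendritic cell genes high enough to compare. In the stem and progenitor list, Ctla2a, a protease inhibitor, was at 525 against 310, and Lmo2, a cofactor that bridges GATA factors, was lower in members, at 173 against 250. Of 8 compared immediate early genes 7 were above 0 against the cells low in both genes and 0 at least 2-fold. Their median log2 ratio was 0.31, beside −0.11 for all 5384 compared genes, of which 27.9% were above 0. Klf6 was at 66.2 against 40.9 CPM. Compared with the basophil and mast gene cells, 11 of 12 immediate early genes were below 0, with a median of −1.34. In that comparison 2059 of all 5483 genes were below 0, with a median of 0.16. Genes of ribosomal proteins made up 28.2% of members' UMIs and 26.2% of the UMIs of the cells low in both genes. Of the 2 compared interferon response genes, Bst2 was at 283 against 249 and Ifi27l2a at 21.9 against 25.8.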
